A study of Mus musculus with 12 samples.

Results

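Keratins are the intermediate filament proteins of epithelial cells. The family was taken as all genes of the read count table with a mouse symbol of Krt followed by a number, with or without a letter, which gave 54 genes of 55487 identifiers: 28 of type I and 26 of type II. The tumours were grown from Sq-1979, an established murine cell line of squamous head and neck cancer, by injection with Matrigel beneath the skin of C3H/HeN males aged 6 weeks. Treatment began 20 days later with vehicle, with regorafenib (an inhibitor of several kinases, VEGF receptors among them) at 5 mg/kg per day, with an antibody against the checkpoint receptor PD1, for which the labels give no dose, or with regorafenib and anti-PD1 together, here the combination. Each of the 4 groups had 3 libraries of polyadenylated RNA. All groups therefore share 1 tumour cell line, 1 strain and 1 sex, and nothing in the labels ties the 3 samples of each group to different animals, so the p-values measure only the spread between these samples, which may be technical.

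A keratin filament is built from pairs that join 1 acidic type I keratin with 1 basic to neutral type II keratin, and epithelial cells make the partners together. Basal cells of stratified epithelia make KRT5 with KRT14 and KRT15, cells that leave the basal layer switch to KRT1 with KRT10 in epidermis or to KRT4 with KRT13 in the lining of the mouth, wounded and cancerous epithelia make KRT6, KRT16 and KRT17, and single-layered epithelia make KRT8, KRT18, KRT7 and KRT19. In squamous carcinoma the basal and stress pairs mark squamous identity, and the single-layer pairs are found where that identity is weaker.

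The libraries held 22591835 to 28209036 counts. A keratin was tested where its counts were high enough to fit a model, which held for 22 of the 54 (11 of each type), among 16974 genes tested. The labelled epithelial origin was present in every library: Epcam, the epithelial cell adhesion molecule, lay between 173 and 335 CPM (counts scaled to library size, with TMM factors), and Trp63, the transcription factor of squamous and basal cells, between 334 and 541 CPM. The libraries are of whole tumours and also held host cells. The summed CPM of 8 fibroblast markers, all of them detected, ran from 23270 to 31520 in vehicle, 5876 to 31590 in anti-PD1, 4998 to 28910 in regorafenib and 4224 to 12190 in the combination. Most of this sum was collagen RNA: Col1a1, Col1a2 and Col3a1 measured 12590, 9352 and 8653 CPM in vehicle 1, whose sum was 31520. In combination against vehicle the log2 fold changes of the 8 ran from -2.95 (Lum) to -0.21 (Pdgfra), with these 3 collagens at -1.95 to -2.02. In such bulk RNA, fewer cells of a type and less RNA per cell cannot be told apart. The libraries regorafenib 2 and anti-PD1 1 stood apart from the others of their groups in several keratins, as given with each result below.

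The keratin genes lie in 2 clusters, with 27 type I genes on chromosome 11 and the 26 type II genes on chromosome 15, where Krt18 alone among type I genes also lies, facing its partner Krt8. Promoter windows of RefSeq (build GRCm38.p6, 300 bases each) were found for 36 of the 54, and 34 of these began within 200 bases of the GENCODE gene start. A TATA box (TATAAA, either strand) was in 19 of those 34 windows, against 13.6% of 32851 windows of all genes. The AP-1 site TGANTCA was in 1 of the 34 (7.81% of all windows), the GC box GGGCGG in 1 (35.7%) and a p53 family half-site, the kind of sequence that p63 binds, in 3 (8.36%). Krt5 is shown as the most abundant keratin, with its p53 family half-site, which starts at position -95 from the RefSeq start, in capitals. Krt8 and Krt18 are shown as the partners whose levels moved together, and none of the 4 motifs matched in the stretches printed for them. The whole Krt8 window held 2 TATA box matches, at -3 and -1 from its RefSeq start, beyond the end of the printed stretch. Each line runs 5′ to 3′ on the gene's strand and ends at the base before the gene start that lies farther upstream, which is the RefSeq start for Krt5 and the GENCODE start for Krt8 and Krt18: chr15:101712906-101713155 (minus strand) for Krt5, chr15:102004483-102004592 (minus strand) for Krt8 and chr15:102027966-102028179 (plus strand) for Krt18.
Krt5: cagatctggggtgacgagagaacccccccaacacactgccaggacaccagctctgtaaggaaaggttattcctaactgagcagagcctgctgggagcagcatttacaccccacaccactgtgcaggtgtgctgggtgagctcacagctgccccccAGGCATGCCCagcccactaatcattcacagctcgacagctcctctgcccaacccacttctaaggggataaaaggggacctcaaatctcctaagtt
Krt8: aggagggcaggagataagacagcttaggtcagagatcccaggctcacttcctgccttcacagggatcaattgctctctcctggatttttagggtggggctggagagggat
Krt18: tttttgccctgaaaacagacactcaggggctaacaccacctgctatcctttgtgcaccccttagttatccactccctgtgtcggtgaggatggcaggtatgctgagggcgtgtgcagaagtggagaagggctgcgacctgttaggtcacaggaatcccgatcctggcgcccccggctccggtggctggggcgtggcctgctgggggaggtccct

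Per transcript length, the tumours were dominated by the basal pair. Krt5 had a median of 9138 TPM (counts scaled by exon length and then by library) over the 12 libraries, with a range of 7440 to 10790, and Krt14 a median of 5957 TPM with a range of 4268 to 8722. Together they made up 74.3% to 81.5% of all keratin TPM. The stress keratins Krt17 (median 2123 TPM) and Krt6a (784 TPM) followed, then basal Krt15 (465 TPM), the simple epithelial pair Krt8 (385 TPM) and Krt18 (277 TPM), and Krt7 (72.2 TPM). The order Krt5, Krt14, Krt17, Krt6a held in 12 of 12 libraries. Further down the neighbours overlapped: Krt6a was above Krt15 in 7 of 12 libraries, Krt15 above Krt8 in 7 and Krt8 above Krt18 in 9, whereas Krt18 was above Krt7, and Krt7 above Krt80, in all 12. Krt80, Krt16, Krt79 and Krt13 formed a lower tier, with medians of 33.9, 23.1, 18.5 and 16.5 TPM, and the other tested keratins (Krt10, Krt6b, Krt4, Krt23, Krt83, Krt90, Krt19, Krt42, Krt78 and Krt222) had means of 0.207 to 4.15 TPM.

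**Figure D1:**
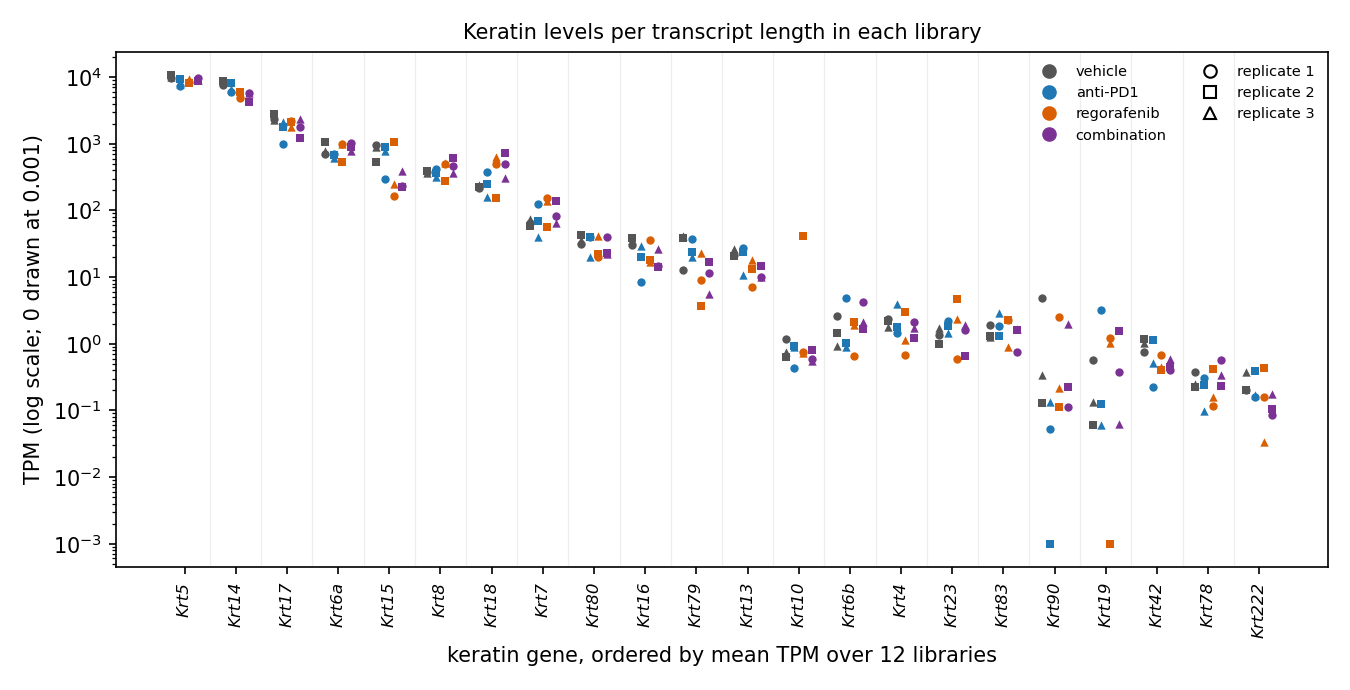
TPM of the 22 tested keratins in each library on a log axis, ordered by the mean over 12 libraries; colour gives the group and shape the replicate number. Krt5 and Krt14 lead in every library, the points of Krt15 and Krt18 spread widely within the regorafenib group, and a single regorafenib library carries the high value of Krt10.

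All keratins together took 1.48% ± 0.11 (SD, n = 3) of the counts in vehicle, 1.20% ± 0.16 in anti-PD1, 1.20% ± 0.08 in regorafenib and 1.18% ± 0.07 in the combination. The lowest vehicle library (1.39%) was above every library of the other 3 groups (at most 1.37%). Type I genes made up 50.8% ± 0.7 of keratin TPM in vehicle and 50.2% ± 3.1 in anti-PD1, against 45.9% ± 4.4 in regorafenib and 42.3% ± 4.2 in the combination. These are shares of a whole and were not tested.

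One keratin passed the test (here and below, unless another tool is named, edgeR quasi-likelihood, Benjamini-Hochberg adjusted p under 0.05 over all genes tested) in any of the 8 comparisons: Krt14, which fell. The average effect of regorafenib, taken over the libraries with and without anti-PD1, called 1 of 22 keratins, against 9.49% of all genes, and 3.32% of all genes as lower. Combination against vehicle also called 1 of 22, against 7.34% of all genes and 2.32% as lower. One of 22 is close to these shares of all genes. The median log2 fold change of the 22 was -0.08 and -0.40 in these comparisons, beside 0.00 and 0.02 over all genes tested. In both, 5 of the 22 keratins had an unadjusted p under 0.05, no larger a share than the 4745 and 4743 of 16974 genes with such a p. They were the same 5: Krt13, Krt14, Krt15 and Krt79 with lower values and Krt18 with higher values in regorafenib-treated libraries. Regorafenib against vehicle called 0 of 22 (0.00589% of all genes). In it 2 keratins (Krt10 and Krt14) had an unadjusted p under 0.05, beside 14.1% of all genes. DESeq2 called 1, Krt14, beside 425 of 16974 genes. Combination against anti-PD1 called 0 (1.92% of all genes). There 2 keratins (Krt13 and Krt14) had an unadjusted p under 0.05, beside 19.3% of all genes. DESeq2 called 0 keratins there, beside 1202 of 16974 genes. Anti-PD1 against vehicle, combination against regorafenib, the average anti-PD1 effect and the interaction of the drugs each called 0 keratins and 0.0% of all genes by edgeR. Each had 1 keratin at an unadjusted p under 0.05 (Krt90 in the first, Krt10 in the others). Such a p was found in 5.17%, 5.45%, 8.75% and 2.65% of all genes, in this order. DESeq2 called 0 keratins in these 4 comparisons, beside 5, 4, 11 and 0 of all genes. Comparisons with vehicle share the vehicle libraries. Counted by ranges instead, 0 of 22 keratins were separate between the 6 regorafenib-treated and the other 6 libraries (4.64% of all genes), and 8 of 22 between the 3 combination and 3 vehicle libraries, near the 39.2% of all genes: Krt5, Krt13, Krt14, Krt15, Krt16, Krt42 and Krt222 were lower and Krt18 higher.

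**Figure D2:**
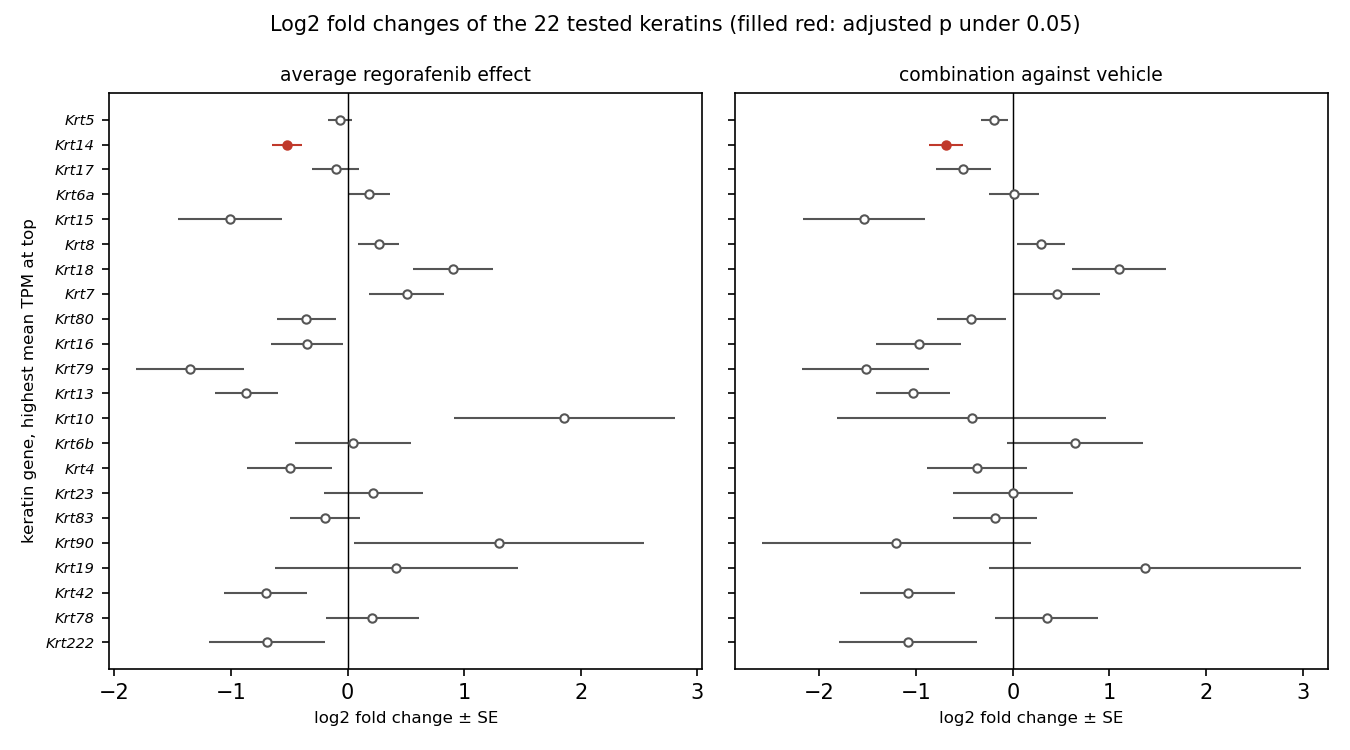
Log2 fold changes with their standard errors for the 22 tested keratins, in the average regorafenib effect (left) and combination against vehicle (right); filled red marks an adjusted p under 0.05. Krt14 alone is filled, at -0.52 and -0.69, and the widest bars belong to Krt19, Krt90 and Krt10, whose counts were very uneven between libraries.

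Among the basal keratins, Krt14 fell with regorafenib and its partner Krt5 was not called. Krt14, the main type I keratin of basal cells (chromosome 11, 100203162 to 100207548, minus strand), measured 4320, 5102 and 4618 CPM in the 3 vehicle libraries and 3349, 4761 and 3770 CPM with anti-PD1. It measured 2732, 3234 and 3375 CPM with regorafenib and 3166, 2287 and 3229 CPM with the combination. Every regorafenib-treated library was below every vehicle library, and of the 6 libraries without regorafenib anti-PD1 1 alone (3349) reached into their range. How many of all genes separate the regorafenib-treated from the vehicle libraries was not counted. The 6 libraries with the lowest Krt14 (2287 to 3349 CPM), 5 of them regorafenib-treated, shared 5 with the 6 lowest in summed fibroblast markers. The part of this fibroblast marker RNA in the Krt14 values was not tested. The average regorafenib effect was a log2 fold change of -0.52 ± 0.13 (SE), 1.43-fold lower, with an adjusted p of 0.0303, and combination against vehicle gave -0.69 ± 0.18, 1.62-fold lower, with an adjusted p of 0.0429. Krt14 is past the threshold by a small margin: the average effect lost the call without vehicle 1, vehicle 2 or vehicle 3 (adjusted p of 0.0582, 0.0718 and 0.0642), anti-PD1 2 (0.0811), regorafenib 1 (0.0556) or combination 2 (0.0676), and the combination call was lost without vehicle 1, 2 or 3 (0.0957, 0.13 and 0.115), anti-PD1 3 (0.0534), combination 1 (0.087) or combination 2 (0.145), with the fold change between -0.45 and -0.57 in the former and -0.56 and -0.78 in the latter. A share of 13.9% of the 50-base words of Krt14 transcripts also occurs in other genes, mostly Krt16, which measured 4.20 to 20.1 CPM, and also Krt17, which measured 500.4 to 1468 CPM.

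Krt5, the type II partner of Krt14 (chromosome 15, 101707070 to 101712898, minus strand), measured 6724, 7890 and 6875 CPM in vehicle, 5239, 6703 and 5555 CPM with anti-PD1, 5894, 5515 and 6868 CPM with regorafenib, and 6670, 5935 and 6245 CPM with the combination. The 6 regorafenib-treated libraries lay within the range of the other 6. All combination libraries were below all vehicle libraries, as in 39.2% of all genes, and regorafenib 3 alone of the regorafenib-treated reached into the vehicle range. All anti-PD1 libraries were below vehicle too (adjusted p = 0.866), a separation whose share over all genes was not counted. The average regorafenib effect was -0.06 ± 0.10 on the log2 scale (adjusted p = 0.734). Combination against vehicle was -0.19 ± 0.14 (adjusted p = 0.413).

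Krt15, a type I keratin of resting basal cells and hair follicle stem cells, varied far more between libraries. It measured 544.7, 314.5 and 502.4 CPM in vehicle and 170.3, 516.0 and 445.3 CPM with anti-PD1. With regorafenib it measured 92.0, 572.8 and 147.7 CPM, and with the combination 129.2, 119.2 and 219.7 CPM. Regorafenib 2 had the highest value of all 12 libraries and anti-PD1 1 the lowest of those without regorafenib. The average regorafenib effect was -1.01 ± 0.44 (2.01-fold lower, adjusted p = 0.167) and combination against vehicle -1.54 ± 0.63 (2.91-fold lower, adjusted p = 0.147). Without regorafenib 2 the same values were -1.59 (adjusted p = 0.0218) and -1.55 (adjusted p = 0.0495), so that in the fits of all 4 groups this library decides whether Krt15 passes. Fitted on only the 6 libraries compared, which leaves out regorafenib 2 too, combination against vehicle had an adjusted p of 0.0264. The 6 libraries with the lowest Krt15 (92.0 to 219.7 CPM) were the same 6 as those with the lowest summed fibroblast markers (4224 to 12190 CPM, against 23270 to 31590 in the others), 5 of them regorafenib-treated. The part of this fibroblast marker RNA in the Krt15 values was not tested.

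**Figure D3:**
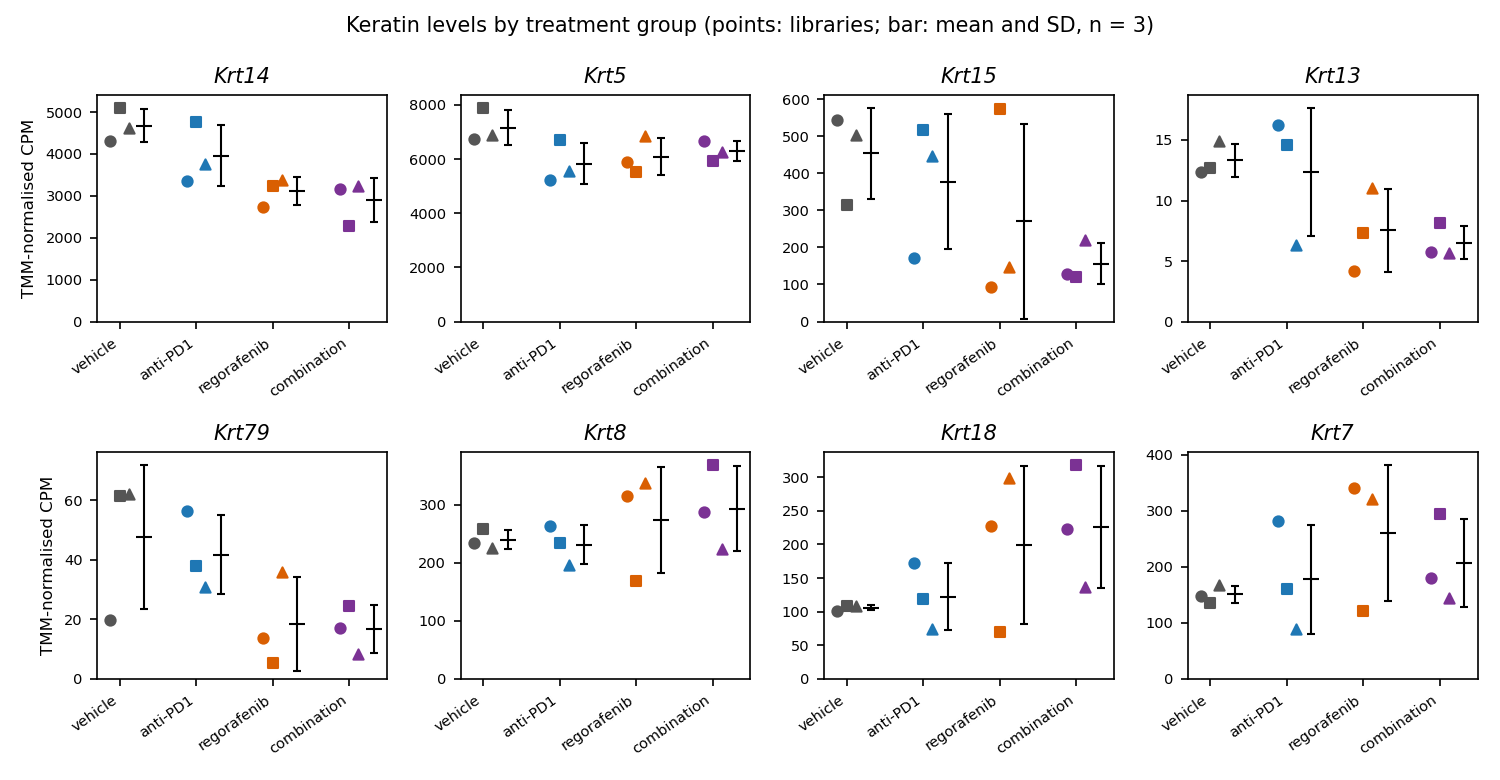
TMM-normalised CPM of 8 keratins by group, each axis starting at 0; points are libraries, shaped by replicate number, and the bar beside them gives the mean and SD of 3. Krt14 is lower in all 6 regorafenib-treated libraries than in vehicle, and Krt5 in all of them but regorafenib 3, as also in the anti-PD1 libraries. In Krt15, Krt8 and Krt18 the library regorafenib 2 lies away from the other 2 of its group.

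The ratio of partners was also computed within each library, from the reads of the keratin genes alone. Krt14 reads per 100 Krt5 reads were 64.2, 64.7 and 67.2 in vehicle and 63.9, 71.0 and 67.9 with anti-PD1. They were 46.4, 58.6 and 49.1 with regorafenib and 47.5, 38.5 and 51.7 with the combination. All 6 regorafenib-treated libraries were below all 6 others, including regorafenib 2 and anti-PD1 1, which had crossed over in Krt15. The 6 with the lower ratio shared 5 with the 6 lowest in fibroblast markers, whose part in the ratio was not tested. The averaged log2 difference was -0.46 (1.38-fold lower; exact permutation test within each anti-PD1 background, two-sided, p = 0.005, the smallest that its 400 arrangements give, and 0.035 adjusted over the 7 partner ratios computed). It lay between -0.51 and -0.40 when any 1 library was left out. The ratio was chosen after the values of Krt14 and Krt5 had been seen. Krt15 reads per 100 Krt5 reads ranged from 1.56 to 10.4 in regorafenib-treated and 3.25 to 8.10 in other libraries (log2 difference -1.11, exact p = 0.06, adjusted 0.14).

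**Figure D4:**
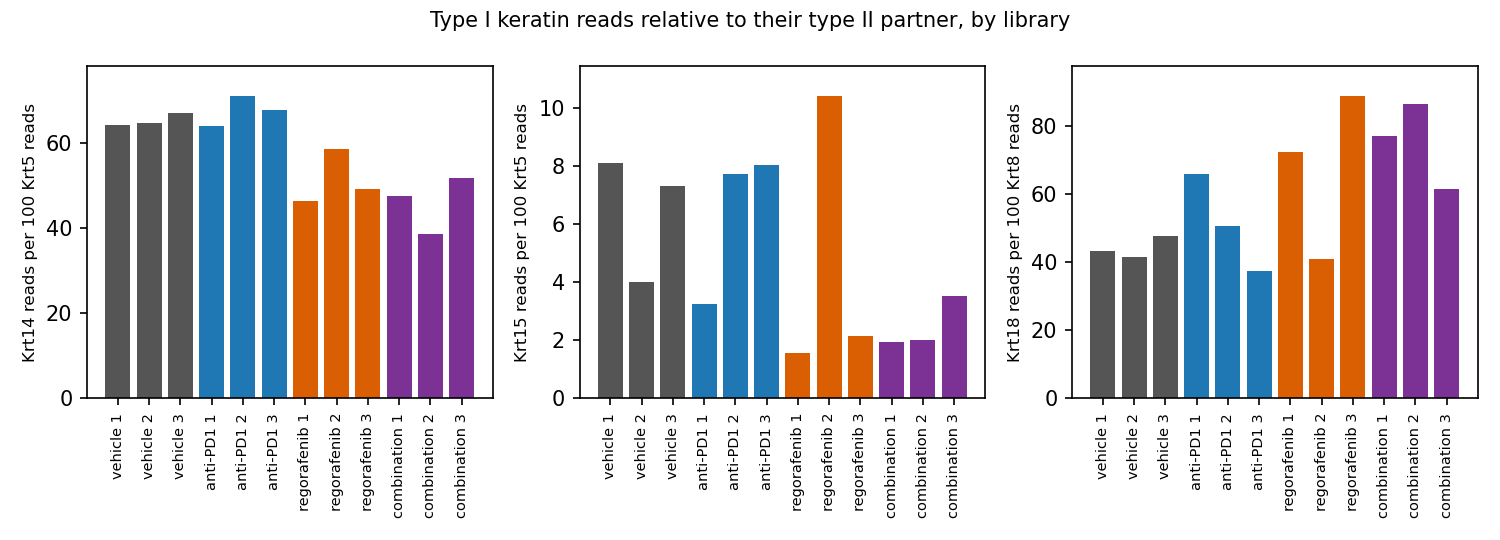
Reads of a type I keratin per 100 reads of its type II partner in each library, with bars from 0 coloured by group. Krt14 per 100 Krt5 reads is at most 58.6 in the regorafenib and combination libraries and at least 63.9 in the others; for Krt15 per Krt5 and Krt18 per Krt8 the library regorafenib 2 departs from the rest of its group.

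In the average regorafenib effect and combination against vehicle the tested simple epithelial keratins had log2 fold changes above 0, without a call by edgeR over all 12 libraries. That of Krt23 in combination against vehicle was only 0.004. Krt18, the type I keratin of single-layered epithelia (chromosome 15, 102028180 to 102032027, plus strand), measured 101.4, 107.7 and 108.0 CPM in vehicle and 173.0, 118.9 and 73.3 CPM with anti-PD1. With regorafenib it measured 227.6, 68.9 and 299.3 CPM, and with the combination 222.4, 318.8 and 137.3 CPM. All 3 combination libraries were above vehicle, and regorafenib 2 was the lowest of all 12 libraries. The average regorafenib effect of 0.90 ± 0.34 on the log2 scale (1.87-fold higher) had an adjusted p of 0.117 by edgeR and 0.0407 by DESeq2, so that it passed by DESeq2 alone. By edgeR the call was also missed in combination against vehicle, at 1.097 ± 0.49 (2.14-fold higher, adjusted p = 0.17 by edgeR, 0.0919 by DESeq2). Fitted on only the 6 libraries compared, edgeR gave an adjusted p of 0.0455 there. Without regorafenib 2 the average effect was 1.11 with an adjusted p of 0.0285. The 6 libraries highest in Krt18 (137.3 to 318.8 CPM) were the same 6 as those lowest in Krt15 and in summed fibroblast markers. The part of the fibroblast marker RNA was not tested here either.

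Krt8, the type II partner of Krt18 (chromosome 15, 101996698 to 102004482, minus strand), measured 234.4, 258.5 and 226.1 CPM in vehicle, 262.5, 234.3 and 196.5 CPM with anti-PD1, 314.4, 168.4 and 336.8 CPM with regorafenib and 288.0, 368.9 and 223.1 CPM with the combination. The ranges of all groups overlapped, and the average regorafenib effect was 0.27 ± 0.18 (adjusted p = 0.354). The 2 partners varied together across libraries: Pearson's r of log2 CPM was 0.95 over 12 libraries (permutation p = 1e-05, the smallest that 100000 resamples give, adjusted 7e-05 over 7 pairs) and Spearman's rho 0.874 (permutation p = 0.00036, adjusted 0.0014). Without the 2 libraries farthest from the median of Krt8, regorafenib 2 and combination 2, r was 0.928, and over deviations from the group means it was 0.974. Krt18 had the wider range, so that Krt18 reads per 100 Krt8 reads went from 37.3 to 65.9 in libraries without regorafenib and from 40.9 to 88.8 in those with it (log2 difference 0.56, exact permutation p = 0.04, adjusted 0.14). The counting of Krt8 may be affected by a copy: 26.9% of its 50-base words also occur in the pseudogene Krt8-ps, which itself had 75 to 248 counts per library.

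Krt7, a type II keratin of glandular and ductal epithelia, measured 148.2, 136.0 and 167.5 CPM in vehicle, 282.6, 160.1 and 89.3 CPM with anti-PD1, 340.4, 120.9 and 321.2 CPM with regorafenib and 179.9, 294.7 and 144.5 CPM with the combination (average regorafenib effect 0.51 ± 0.32, adjusted p = 0.334). Its type I partner Krt19 was close to the detection limit, with 1 to 8 counts in vehicle, 1 to 45 with anti-PD1, 0 to 17 with regorafenib and 1 to 25 with the combination, the highest being anti-PD1 1. Krt7 and Krt19 also moved together across the libraries (r = 0.869, permutation p = 0.00041, adjusted 0.00143; rho = 0.881, permutation p = 0.0004, adjusted 0.0014; r = 0.862 without regorafenib 1 and regorafenib 3). A low sum of fibroblast markers and high Krt7, Krt8 or Krt19 shared 5 of 6 libraries at the end of each range. Krt23 had 7 to 51 counts per library with its highest in regorafenib 2, and Krt20, a keratin of gut and bladder lining, 0 to 5 counts and was not tested. In all, edgeR called 0 of the 5 tested simple epithelial keratins in either comparison, with 1 (Krt18) at an unadjusted p under 0.05 in each, and DESeq2 called 1 (Krt18) on average and 0 in combination against vehicle. The 5 had medians of 0.42 and 0.46 on the log2 scale and 5 of 5 values above 0 in both. In combination against vehicle, however, Krt23 was at 0.004 ± 0.62 and the low-count Krt19 at 1.37 ± 1.61. Since Krt8 varied with Krt18 and Krt7 with Krt19, the 5 signs are not separate observations.

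**Figure D5:**
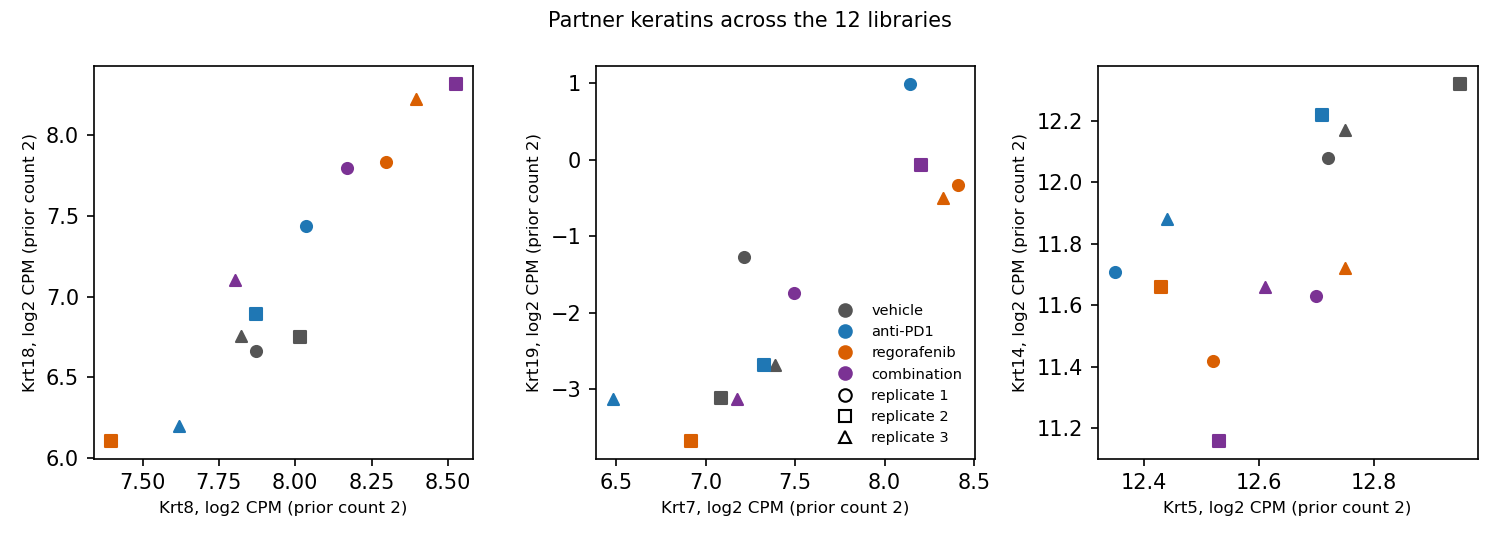
Log2 CPM of a type II keratin (horizontal) against its type I partner (vertical) in 12 libraries; colour gives the group and shape the replicate number. Krt8 with Krt18 (r = 0.95) and Krt7 with Krt19 (r = 0.869) lie along a line with regorafenib 2 at or near the low end, while in Krt5 with Krt14 (r = 0.597) the regorafenib-treated points lie low in Krt14 for their Krt5.

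The other partner pairs were not tightly coupled. Krt5 and Krt14 had r = 0.597 over 12 libraries (permutation p = 0.04, adjusted 0.0938; rho = 0.587, permutation p = 0.049, adjusted 0.114), which was 0.504 without vehicle 2 and anti-PD1 1, and 0.736 over deviations from the group means. Krt5 with Krt15 (r = 0.142), Krt6a with Krt16 (r = 0.201), Krt6a with Krt17 (r = 0.156) and Krt4 with Krt13 (r = 0.123) had permutation p-values of 0.53 to 0.7, rho of 0.0629 to 0.231, and adjusted p-values of 0.704 or more. The pair Krt1 and Krt10 was not run because Krt1 had too few counts.

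The stress keratins, which rise in wounded skin and are high in many squamous carcinomas, were abundant in all groups, and 0 of 4 passed in either comparison by edgeR or DESeq2, with 0 at an unadjusted p under 0.05. Krt6a, a type II keratin, measured 552.6, 870.7 and 592.2 CPM in vehicle, 535.9, 534.2 and 475.7 CPM with anti-PD1, 774.9, 391.4 and 804.8 CPM with regorafenib and 782.0, 657.6 and 598.9 CPM with the combination. Its average regorafenib effect was 0.18 ± 0.18 (adjusted p = 0.556). The anti-PD1 libraries were all below vehicle (adjusted p = 0.866) and below the combination (adjusted p = 0.431), and the other pairs of groups overlapped. The share of all genes separated in these 2 pairs was not counted. Krt17, a type I keratin, measured 1150, 1468 and 1112 CPM in vehicle, 500.4, 901.1 and 1042 CPM with anti-PD1, 1085, 1030 and 911.2 CPM with regorafenib and 877.4, 585.5 and 1153 CPM with the combination (average effect -0.10 ± 0.20, adjusted p = 0.786). Its anti-PD1 libraries (adjusted p = 0.866) and its regorafenib libraries (adjusted p = 0.655) were all below vehicle, separations not counted over all genes. Krt17 per 100 Krt6a reads ran from 89.0 to 263 and showed no separation of the groups (exact permutation p = 0.4, adjusted 0.56). Krt16, the other type I stress keratin, measured 15.1, 20.1 and 17.9 CPM in vehicle and 4.20, 10.2 and 14.8 CPM with anti-PD1. With regorafenib it measured 18.1, 8.66 and 8.82 CPM, and with the combination 7.25, 6.86 and 12.97 CPM. The combination libraries were all below vehicle, as in 39.2% of all genes, with a log2 fold change of -0.97 ± 0.44 (adjusted p = 0.18). The anti-PD1 libraries were all below vehicle too, at -0.86 ± 0.44 (adjusted p = 0.866), a separation not counted over all genes. Krt6b had 11 to 83 counts per library. Of the 50-base words of Krt6b, Krt6a and Krt16, 50.1%, 45.7% and 37.6% occur in other genes, for Krt6a and Krt6b mostly in each other, so counts of these 3 genes are uncertain to the extent that shared reads were split or dropped.

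Among the keratins of the mouth's suprabasal layers, Krt13, the type I partner, measured 12.4, 12.7 and 14.9 CPM in vehicle and 16.2, 14.6 and 6.32 CPM with anti-PD1. It measured 4.19, 7.34 and 11.1 CPM with regorafenib and 5.75, 8.11 and 5.69 CPM with the combination. The 6 regorafenib-treated libraries were below vehicle, a separation whose share over all genes was not counted, and anti-PD1 3 lay among them. The average regorafenib effect was -0.87 ± 0.27 (1.83-fold lower) with an adjusted p of 0.0668 by edgeR, and 0.0147 by DESeq2. Krt13 passed with edgeR without anti-PD1 3 (-1.03, adjusted p = 0.0332) or without regorafenib 3 (-1.07, adjusted p = 0.0436). Its type II partner Krt4 was lower still, at 11 to 76 counts per library, with an average effect of -0.49 ± 0.36 (adjusted p = 0.411). Krt78 had 3 to 14 counts and Krt76, not tested, 0 or 1. For this class edgeR called 0 of the 3 tested members in the average regorafenib effect or combination against vehicle, and DESeq2 1 (Krt13) in both. DESeq2 called 2808 and 2614 of all 16974 genes in these 2 comparisons.

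Krt79, a type II keratin of the hair follicle canal and sebaceous ducts, measured 19.6, 61.4 and 62.0 CPM in vehicle, 56.4, 37.9 and 30.7 CPM with anti-PD1, 13.7, 5.32 and 35.9 CPM with regorafenib and 16.97, 24.5 and 8.33 CPM with the combination. Most regorafenib-treated libraries were low, but vehicle 1 was low and regorafenib 3 high for their groups. The average effect of -1.35 ± 0.46 (2.55-fold lower) had an adjusted p of 0.0882 by edgeR and 0.0169 by DESeq2, and it passed by edgeR without regorafenib 3 (-1.82, adjusted p = 0.0378). Krt80, a type II keratin of differentiating epithelia, ran from 41.2 to 89.9 CPM over the libraries, with an average effect of -0.35 ± 0.25 (adjusted p = 0.4). Krt42 had 3 to 19 counts and Krt222, a shortened keratin relative, 1 to 11. Krt90 was uneven: 94 counts in vehicle 1, 49 in regorafenib 1 and 43 in combination 3, against 0 to 7 in the other 9 libraries.

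The epidermal suprabasal keratins were found in quantity in 1 library. Krt10, the type I keratin of cornifying epidermis, had 616 counts in regorafenib 2 and 7 to 19 in the other 11 libraries. Krt77 had 552 counts there against 0 to 5, and Krt1, the type II partner of Krt10, 188 against 0 to 3. Neither Krt1 nor Krt77 was tested, since 1 library alone held them. Summed over the 5 genes of the class, of which Krt2 was at 0 in all libraries, regorafenib 2 held 59.6 CPM and the others 0.297 to 1.01 CPM. The average regorafenib effect on Krt10 was 1.86 ± 0.95 (adjusted p = 0.229) with this library and -0.22 without it. Of 14 cornified envelope genes, regorafenib 2 was the highest library in 4 (Lor, Ivl, Cnfn and Sbsn), the lowest in 1 (Tgm1) and within the range of the others in 9. Their summed level (427.3 CPM, others 288.0 to 516.7) was within the range of the others too. Ppl (217.1 CPM) and Evpl (74.5 CPM) were the largest parts of that sum. Loricrin (Lor), a major protein of the envelope, measured 8.49 CPM there against 0.627 to 4.06 CPM, and Tgm1, the transglutaminase that cross-links it, 9.98 CPM against 12.6 to 45.5 CPM. Hair shaft keratins (1.94 CPM, others 0.795 to 2.16), root sheath keratins (0.132 CPM, others 0.109 to 0.522) and sebaceous gland markers (76.5 CPM, others 44.1 to 83.6) were within the range of the other libraries in regorafenib 2. The sebaceous gland sum there was nearly all Soat1 (75.98 CPM), with the other markers at 0 to 0.264 CPM, so it describes 1 gene. The part of skin tissue in this library was not tested. Krt9, the keratin of palm and sole skin, had 0 to 4 counts everywhere.

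Keratins of the hair follicle were close to absent. Of 15 hair shaft keratins, Krt83 alone was tested, with 10 to 48 counts per library and an average regorafenib effect of -0.19 ± 0.30 (adjusted p = 0.723), and 22.1% of its 50-base words occur in related hair keratins. Krt36 had 1 to 10 counts per library and Krt31 0 to 4. Krt32, Krt33a, Krt35, Krt39, Krt81, Krt82, Krt84, Krt86 and Krt87 had totals of 1 to 14 over all 12 libraries, and Krt33b, Krt34 and Krt40 had 0. None of the 9 root sheath keratins was tested: Krt74, which is annotated as a pseudogene in mouse, reached 47 counts in all, Krt75 19, Krt71 12, Krt25 4, Krt28 3, and Krt72 and Krt73 1 each, and Krt26 and Krt27 had 0. Krt88 had 50 counts in all, with 10, 12 and 5 in the combination libraries, Krt24 had 4 and the cornea keratin Krt12 had 0. In total 25 keratins had counts but were not tested, and 7 had 0 counts in every library; a count of 0 in a library allows up to 3 counts at this depth, by counting error alone.

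The structures that anchor keratin filaments were described with lists chosen with earlier results of these data known. Of 10 desmosome genes, which tie keratins to cell junctions, 0 passed in the average regorafenib effect or in combination against vehicle, with a median log2 fold change of -0.16 and -0.20. Dsc2, a desmosomal cadherin, was the 1 gene at an unadjusted p under 0.05 in each and the 1 that DESeq2 called, in the second alone, at -0.17 ± 0.07 (adjusted p = 0.124) and -0.31 ± 0.09 (adjusted p = 0.0661). Of 9 hemidesmosome genes, which tie keratins to the basement membrane, 0 passed on average (median -0.02; 2 at an unadjusted p under 0.05, both called by DESeq2), and 2 rose in combination against vehicle, where 5.03% of all genes were called as higher: Itgb4, the integrin chain that binds plectin, by 0.69 ± 0.19 (adjusted p = 0.0489), and Plec, the linker to keratins, by 0.51 ± 0.13 (adjusted p = 0.0434). The median of the 9 there was 0.13. Without vehicle 1, vehicle 2 or vehicle 3, combination against vehicle called 0 of all genes as higher, so neither Itgb4 nor Plec passed in those fits. Itgb4 measured 931.0, 981.9 and 868.2 CPM in vehicle and 1585, 1702 and 1200 CPM in the combination, and Plec 592.4, 692.1 and 569.1 CPM and 924.0, 931.5 and 788.6 CPM. The ranges did not overlap in either gene, as in 39.2% of all genes.

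Of 14 squamous transcription factors, 0 passed in either comparison by edgeR, with 2 and 3 at an unadjusted p under 0.05, and DESeq2 called 2 on average (Ehf and Grhl1) and 1 (Ehf) in combination against vehicle, all lower. The lowest p in the average effect belonged to Ehf (-0.46 ± 0.14, adjusted p = 0.0556) and Grhl1 (-0.43 ± 0.14, adjusted p = 0.0707), and their medians were -0.07 and -0.05. Of 10 general epithelial genes, 9 were tested and 0 passed (medians -0.03 and -0.03), with 1 at an unadjusted p under 0.05 in each and 1 (Sfn, lower, in combination against vehicle) called by DESeq2. Of 14 cornified envelope genes, 10 were tested and 0 passed, with 1 and 2 at an unadjusted p under 0.05. Krtdap, a secreted protein of differentiating keratinocytes, had the smallest p, at -0.80 ± 0.30 (adjusted p = 0.119) and -1.36 ± 0.44 (adjusted p = 0.0789), and DESeq2 called it in the latter. The 8 other intermediate filament genes, vimentin (Vim) and lamins among them, had 0 past the threshold by either tool, with 0 and 1 at an unadjusted p under 0.05, and medians of -0.03 and -0.14. Among 5 tested hair follicle genes outside the family, 2 passed in the average effect, against 9.49% of all genes (6.16% as higher and 3.32% as lower): Lgr5, a stem cell receptor, fell by 1.49 on the log2 scale (SE 0.20, adjusted p = 0.00495), and Padi3, an enzyme that modifies follicle proteins, rose by 0.75 ± 0.16 (adjusted p = 0.0227). In combination against vehicle Lgr5 alone passed (-1.43 ± 0.29, adjusted p = 0.0228), and Padi3 was at 0.22 ± 0.23 (adjusted p = 0.561). Lgr5 ranged from 3.44 to 6.98 CPM in the 6 libraries without regorafenib and from 1.37 to 2.92 CPM in the 6 with it, a separation that 4.64% of all genes had.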

How the data were processed

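RNA of 12 tumour samples was measured as stranded libraries of polyadenylated RNA, per the labels' protocols. The values are read counts per gene, deposited by the authors in 1 table. Reads were trimmed with cutadapt 2.4 and aligned with STAR 2.7.2a to GRCm38, as far as the submitters' processing notes name tools; how reads were counted (tool, strandedness, gene models) is not given in the sources used here, so antisense overlaps (77 to 1007 exonic bases in 13 pairs) may add reads. Symbols, coordinates and exon lengths came from GENCODE M21, which matched 55227 of 55487 identifiers.

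Genes passing filterByExpr (minimum count 10, minimum total 15) were tested with edgeR 4.0.16 (R 4.3.3): quasi-likelihood, robust, TMM factors, 4 group means over 12 libraries, 8 residual degrees of freedom, 8 contrasts, two-sided, Benjamini-Hochberg over 16974 genes. The script was tested on simulated data. Every tested keratin is named with its level; untested ones are given by counts; for other lists, up to 4 members of smallest p could be named. Members and lists were chosen with earlier results of these data known. TPM divides counts by exon length. Partner correlations used log2 CPM (prior count 2). Precision depended on library totals and on the spread between samples. Same-numbered libraries correlated at -0.657 to 0.63 in their deviations from group means, above 0.1 in 2 of 18 pairs, so replicate numbers were not treated as pairs. No 2 libraries of the same group agreed within sampling noise (12 pairs compared). Alternatives were DESeq2 1.42.0, RLE factors, no filter, a replicate block, a Y-linked covariate, protein-coding genes only, only the samples compared, and each library left out. Partner ratios were added after the data were seen.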

Additional observations from a re-analysis of the deposited data

How the results depend on the processing

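The count of keratins past the threshold was 1 (Krt14, lower) in the average regorafenib effect and in combination against vehicle, and it moved with the method. DESeq2 called 4 of 22 on average (Krt13, Krt14 and Krt79 lower, Krt18 higher), beside 2808 of all 16974 genes. It called 2 in combination against vehicle (Krt13, Krt14), beside 2614 of all genes, and 1 in regorafenib against vehicle, beside 425. A covariate from 4 Y-linked genes gave 4 in the first 2 comparisons (Krt13, Krt14, Krt79, Krt80, all lower), beside 3342 and 2303 of all 16974 genes. In combination against anti-PD1 it gave 1 (Krt79), beside 795 of all genes. Using only the 6 libraries compared gave 4 in combination against vehicle, beside 2068 of 16320 genes. Krt15 (adjusted p = 0.0264) and Krt18 (adjusted p = 0.0455) were among the 4. Protein-coding genes alone gave 0 there (Krt14 at an adjusted p of 0.0517). With the replicate number as a block (replicate block) both counts were 0, with Krt14 at an adjusted p of 0.0752 on average and 0.0979 in combination against vehicle. Leaving out 1 library gave 0 to 3 on average and 0 to 2 in combination against vehicle. RLE factors and no filter kept Krt14 alone. Krt14 was negative in all of these fits.

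Signs turned for keratins that had not passed. Krt6a in combination against vehicle was 0.02 (-0.11 to 0.24 without 1 library), and -0.15 with the Y-linked covariate, -0.11 without vehicle 1, -0.07 without vehicle 3 and -0.10 without combination 1. Krt10 there was -0.43, and 0.58 with the covariate; its average effect was 1.86, and -0.22 (without regorafenib 2) to 2.14 without 1 library. Krt17 was -0.10 on average, 1.8e-05 with the covariate, 0.0073 without anti-PD1 3, and -0.23 to 0.0104 (without combination 2) over the libraries left out. Partner correlations with no call moved by over 0.2: Krt5 with Krt15 to -0.0948 and Krt4 with Krt13 to -0.268 over deviations from group means, and Krt6a with Krt16 to -0.0796 and Krt4 with Krt13 to -0.14 without the 2 farthest libraries.

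Over all genes, 1610 passed on average (DESeq2 2808, Y-linked covariate 3342, no filter 959, block 504, 460 to 2048 without 1 library) and 1246 in combination against vehicle (2614, 2303, 663, 11 and 1 to 1517, protein-coding only 829, only 6 libraries 2068). Combination against anti-PD1 had 326 (DESeq2 1202, covariate 795, block 0, only 6 libraries 0, 0 to 432 without 1), and regorafenib against vehicle 1 (DESeq2 425, covariate 295, no filter 6, 0 to 4 without 1). The causes were not tested. Counts below about 20 per library limit Krt19, Krt222, Krt78 and Krt42.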
